A study of Mus musculus with 6 samples.

Results

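Tcf3, Tcf12 and Tcf4 encode the E proteins, and Id2 and Id3 encode inhibitors of them. All 5 genes were followed on every array probe whose platform annotation gives that gene's symbol and no other, so that membership did not depend on any measured value. They are 5 of the 18193 genes named in this way on the array and have 18 probes: 6 for Tcf4, 5 for Tcf12, 3 each for Tcf3 and Id2, and 1 for Id3.

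E proteins are basic helix-loop-helix transcription factors. They bind DNA as dimers at E-boxes, sites of the form CANNTG, and in thymocytes they keep the recombinase genes, Cd4 and the pre-T-cell receptor chain gene active while they hold back the genes of mature, emigrating T cells. Id proteins carry the helix-loop-helix without the DNA-binding basic region, so that a dimer of an E protein with an Id protein cannot bind. Signals from the T-cell receptor are known to induce Id3 in double-positive thymocytes, and Id2 and Id3 are both known for roles in CD8 T cells.

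The study measured thymocytes of the CD8 lineage at 3 steps: CD4+CD8+ immature cells (DP), CD4intCD8+ maturing cells, and CD8 single-positive cells (CD8SP), with 2 arrays each. Every group came from H-2b mice aged 5 to 6 weeks that were N15 TCR tg+/+ and RAG-2-/-, so all 3 stages carry the receptor transgene and lack Rag2, and no thymocyte rearranges a receptor of its own. The cells of 6 mice matched for age and sex were sorted by CD4 and CD8 staining in 2 independent experiments; whether mice were pooled is not given, so a p-value measures how far these arrays spread, which may be technical. Total RNA was copied into biotin-labelled cRNA and hybridised, 1 sample per array.

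Array medians lay between 24.9 and 25.7, and 2.78% to 4.33% of values were negative. Of the T-cell markers, 7 of 8 were named on the array and none was dim; their summed intensity was 21178 to 22813 in DP arrays, 14063 to 17500 in CD4intCD8+ arrays and 14153 to 15681 in CD8SP arrays. Cd4 read 351 and 515 in DP arrays, -33 and 11.8 in CD4intCD8+ arrays, and -65.8 and -68.6 in CD8SP arrays, so the CD4intCD8+ arrays gave little or no Cd4 signal although the cells were gated on intermediate surface CD4. The ratio of 3' to 5' actin signal, a measure of RNA integrity that rises as RNA breaks down, was 1.98 and 2.14 in DP arrays, 2.37 and 3.47 in CD4intCD8+ arrays, and 2.28 and 2.62 in CD8SP arrays. It was thus higher on every array of the later stages than in DP.

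The 250 bases before the start of 4 member genes are shown. Of these genes, 3 were called lower after the DP stage in at least 1 of the fits below, and the remaining one, Id3, was called in none. No promoter is shown of Tcf4, which was also uncalled with stage as the only term. The 4 sequences are RefSeq promoter sequences of build GRCm38.p6, written 5' to 3' on the strand of the gene, with CANNTG, the E-box, in capitals. CANNTG reads as CANNTG on both strands.
Tcf12 promoter, chr9:72111820-72112069, minus strand: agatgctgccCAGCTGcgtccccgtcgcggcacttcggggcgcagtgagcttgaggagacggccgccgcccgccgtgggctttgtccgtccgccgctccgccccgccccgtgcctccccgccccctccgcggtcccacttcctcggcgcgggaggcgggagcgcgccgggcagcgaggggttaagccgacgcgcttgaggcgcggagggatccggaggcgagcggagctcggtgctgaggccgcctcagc
Tcf3 promoter, chr10:80433636-80433885, minus strand: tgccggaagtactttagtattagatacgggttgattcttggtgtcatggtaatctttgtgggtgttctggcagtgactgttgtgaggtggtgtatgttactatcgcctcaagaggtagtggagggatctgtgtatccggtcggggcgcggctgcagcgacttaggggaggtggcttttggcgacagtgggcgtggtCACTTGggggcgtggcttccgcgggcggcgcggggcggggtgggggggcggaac
Id2 promoter, chr12:25096093-25096342, minus strand: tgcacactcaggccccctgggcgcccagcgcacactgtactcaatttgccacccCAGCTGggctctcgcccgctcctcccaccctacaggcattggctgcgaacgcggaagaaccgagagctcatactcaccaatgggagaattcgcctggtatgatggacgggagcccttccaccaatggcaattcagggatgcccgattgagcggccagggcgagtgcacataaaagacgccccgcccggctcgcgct
Id3 promoter, chr4:136143572-136143821, plus strand: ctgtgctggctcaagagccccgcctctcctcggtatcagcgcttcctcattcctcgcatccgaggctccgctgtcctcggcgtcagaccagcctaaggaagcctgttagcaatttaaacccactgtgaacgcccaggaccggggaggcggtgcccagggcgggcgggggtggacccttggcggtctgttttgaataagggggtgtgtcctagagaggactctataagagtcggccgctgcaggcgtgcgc
The Tcf12 window holds 1 E-box, CAGCTG, starting 240 bases before the gene's start, and Id2 holds the same hexamer 196 bases before its start. Of the Tcf12 promoters not shown, 1 holds CAAGTG, 149 bases before its start, and 1 holds no CANNTG. Tcf3 holds 1 E-box of another core, CACTTG, 54 bases before its start, and Id3 holds none. Over 32851 promoters of this length, 66.2% held a CANNTG and 13% held CAGCTG. The hexamer CAGGTG, searched on both strands and itself one form of CANNTG, was in 17.2% of promoters and in none of the 4 windows. GCGTGGGCG, the Egr core searched on both strands, was in 0.536% and in none of the 4. A match is a description of these letters and shows no binding.

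Of the 18 probes, 14 were bright enough to be tested, at least 1 per gene, and the 4 dim ones were 2 of Tcf4 and 1 each of Tcf12 and Id2. From DP to CD4intCD8+ 1 of the 14 fell and 0 rose at an adjusted p under 0.05, the threshold for every call here; the fall was that of the brightest Tcf12 probe. Over all 20967 probes tested, 7.45% were called in this comparison and 3.2% called lower. From DP to CD8SP 3 of the 14 fell and 0 rose, 2 probes of Tcf12 and 1 of Id2, where 13.9% of all probes were called and 6.21% called lower. The median log2 change of the 14 was -0.54 and -0.61 in these comparisons, against 0 and -0.01 over all probes. Both CD4intCD8+ arrays lay below both DP arrays for 10 of the 14 probes, against 27% of all probes. Both CD8SP arrays lay below both DP arrays for 13 of the 14, against 29%. The 2 comparisons share the DP arrays and are not independent. Nor are the 14 probes, which measure 5 genes.

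The sample titles number the arrays of every stage 1 and 2, and the study names 2 independent experiments, but which array came from which experiment is not given. Arrays of the same number deviated together from their stage means, so the number was taken to stand for the experiment. Every result with it rests on that assumption. In every stage the replicate 2 array also had the higher actin ratio, so what the number stands for cannot be told apart from RNA integrity. With this number as a term in the fit, the replicate block, 8 of the 14 probes were called lower in each comparison with DP: 3 of Tcf3, 3 of Tcf12 and 2 of Id2. The share of all probes called also rose with the block, to 17.4% for CD4intCD8+ against DP, 7.96% lower, and to 23.4% for CD8SP against DP, 11% lower. No probe of Tcf4 or Id3 was called in either fit. In RNA taken from sorted cells in bulk, fewer cells of a type and less RNA per cell cannot be told apart.

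**Figure D1:**
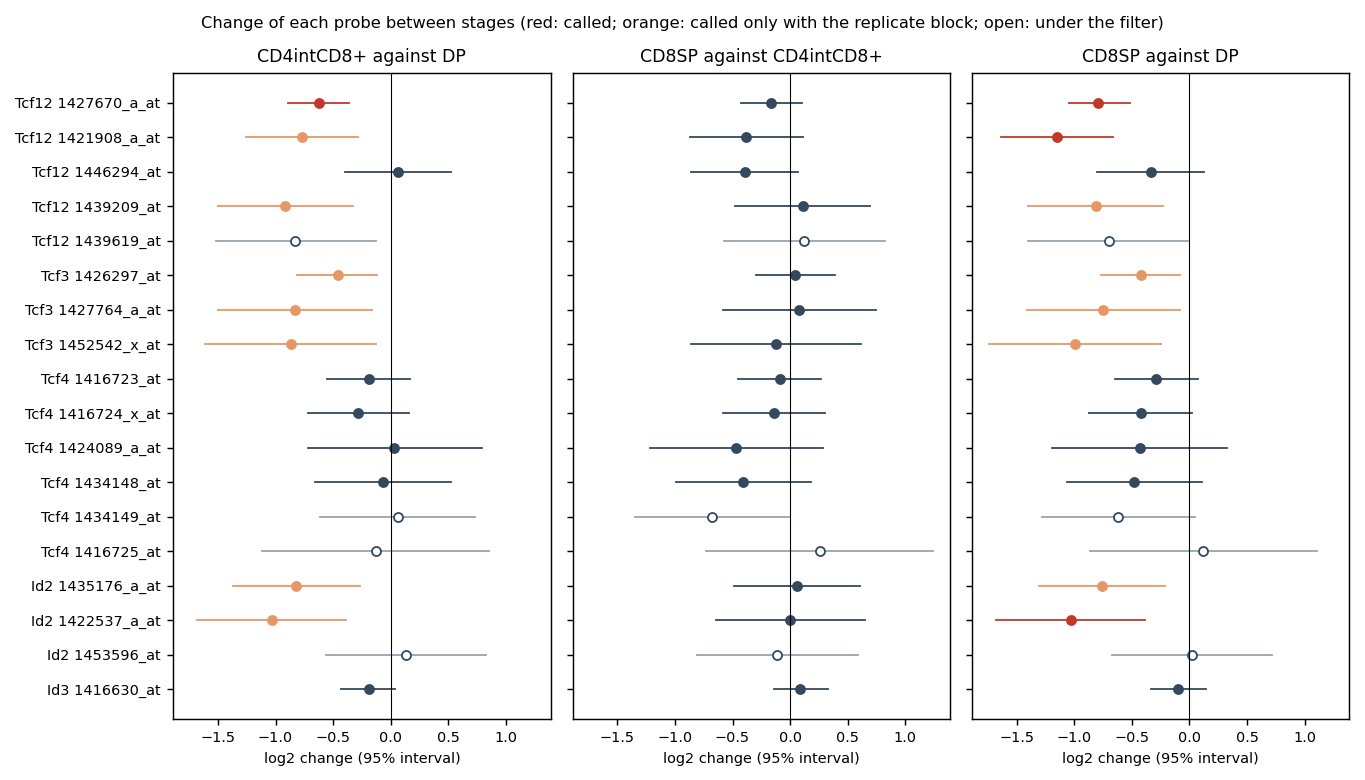
Log2 change of each of the 18 probes (rows) between stages, with 95% intervals; red probes were called in the fit on stage alone, orange probes with the replicate block and not on stage alone, and open points are dim probes left out of the tests. The Tcf12, Tcf3 and Id2 points that are coloured sit left of 0 in both comparisons with DP, and no probe is coloured in CD8SP against CD4intCD8+.

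Tcf12, which encodes the E protein HEB, had the most called probes of the 5 genes on stage alone, 2 against 1 of Id2, while with the block it had 3 of 4 tested probes called and Tcf3 had 3 of 3. Its brightest probe, 1427670_a_at, read 1291 and 1101 in DP arrays, 755 and 790 in CD4intCD8+ arrays, and 658 and 719 in CD8SP arrays. Both DP arrays stood above the other 4, and the CD8SP arrays lay just under the CD4intCD8+ arrays. The log2 change, taken on log2(intensity + 5.84) as for every change here, was -0.62 ± 0.12 (SE) from DP to CD4intCD8+, which leaves 0.65 of the DP level (adjusted p = 0.0162 by limma with Benjamini-Hochberg adjustment over all probes, as throughout). From DP to CD8SP it was -0.79 ± 0.12, or 0.579 of the DP level (adjusted p = 0.00266). The step from CD4intCD8+ to CD8SP, -0.17 ± 0.12, did not pass (adjusted p = 0.795), although both CD8SP arrays lay below both CD4intCD8+ arrays. The same probe changed by -0.77 and -0.48 within replicates 1 and 2 from DP to CD4intCD8+. The call from DP to CD4intCD8+ was lost when DP replicate 1 was left out (adjusted p = 0.115), and likewise for DP replicate 2 (0.0558), for CD4intCD8+ replicate 2 (0.0727) and in the fit with the actin ratio as a covariate (0.0977, at a change of -0.67). The call from DP to CD8SP was kept in each of these fits, with the actin ratio at a change of -0.81 and an adjusted p of 0.00299.

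A further Tcf12 probe, 1421908_a_at, read 292 and 185 in DP arrays, 119 and 151 in CD4intCD8+ arrays, and 102 and 101 in CD8SP arrays. The DP arrays were again the highest, but they differed from each other by more than the CD4intCD8+ arrays did. Its change was -1.15 ± 0.22 from DP to CD8SP (adjusted p = 0.00877) and -0.77 ± 0.22 from DP to CD4intCD8+ (adjusted p = 0.0667, and 0.0229 with the replicate block). Without DP replicate 1 the CD8SP call was lost (adjusted p = 0.0634, change -0.82). Probe 1439209_at read 43 and 47.8 in DP arrays, 18.9 and 23.8 in CD4intCD8+ arrays, and 18.1 and 29.6 in CD8SP arrays. All 4 later arrays lay below DP on this probe, and its changes of -0.92 ± 0.26 and -0.81 ± 0.26 were called with the block (adjusted p = 0.0237 and 0.032) and not on stage alone (0.0657 and 0.0692). Probe 1446294_at behaved otherwise: it read 42.5 and 44.9 in DP arrays, 39.9 and 52.5 in CD4intCD8+ arrays, and 31.2 and 36 in CD8SP arrays. The CD4intCD8+ arrays straddled the DP arrays there, and the changes of 0.06 ± 0.21 and -0.33 ± 0.21 were not called in either fit. The remaining probe, 1439619_at, was under the brightness limit at 10.7 to 30.7, with both DP arrays above the other 4.

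Tcf3, which encodes the E12 and E47 splice forms, had 3 probes, all tested and none called on stage alone. Its brightest, 1426297_at, read 289 and 240 in DP arrays, 199 and 180 in CD4intCD8+ arrays, and 185 and 206 in CD8SP arrays. The DP arrays were above the other 4, and the CD4intCD8+ and CD8SP arrays overlapped. The change was -0.46 ± 0.15 from DP to CD4intCD8+ (adjusted p = 0.101, 95% interval -0.81 to -0.12) and -0.42 ± 0.15 from DP to CD8SP (adjusted p = 0.103). With the replicate block both were called, at adjusted p = 0.0399 and 0.0473. Once the actin ratio was added as a covariate, the first was -0.36 (adjusted p = 0.559) and the second -0.37 (0.208).

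The other Tcf3 probes, 1427764_a_at and 1452542_x_at, come from 1 source record and so are not independent of each other. The first read 169 and 99.2 in DP arrays, 94.7 and 52.1 in CD4intCD8+ arrays, and 79.2 and 70.9 in CD8SP arrays. The second read 118 and 73.2, then 61.9 and 37.2, then 59.9 and 31.7. On both, the replicate 2 array of each stage was the lower one, DP included, and no later array reached the lower DP array. The first changed by -0.83 ± 0.30 and -0.75 ± 0.30 against DP (adjusted p = 0.123 and 0.131) and the second by -0.87 ± 0.33 and -0.99 ± 0.33 (0.142 and 0.0765). With the block the adjusted p fell to 0.0109 and 0.0135 for the first and to 0.00559 and 0.00172 for the second. Once the actin ratio was added as a covariate, the changes to CD4intCD8+ shrank to -0.10 and -0.08 (adjusted p = 0.934 and 0.957), and those to CD8SP to -0.37 and -0.59 (0.354 and 0.191).

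**Figure D2:**
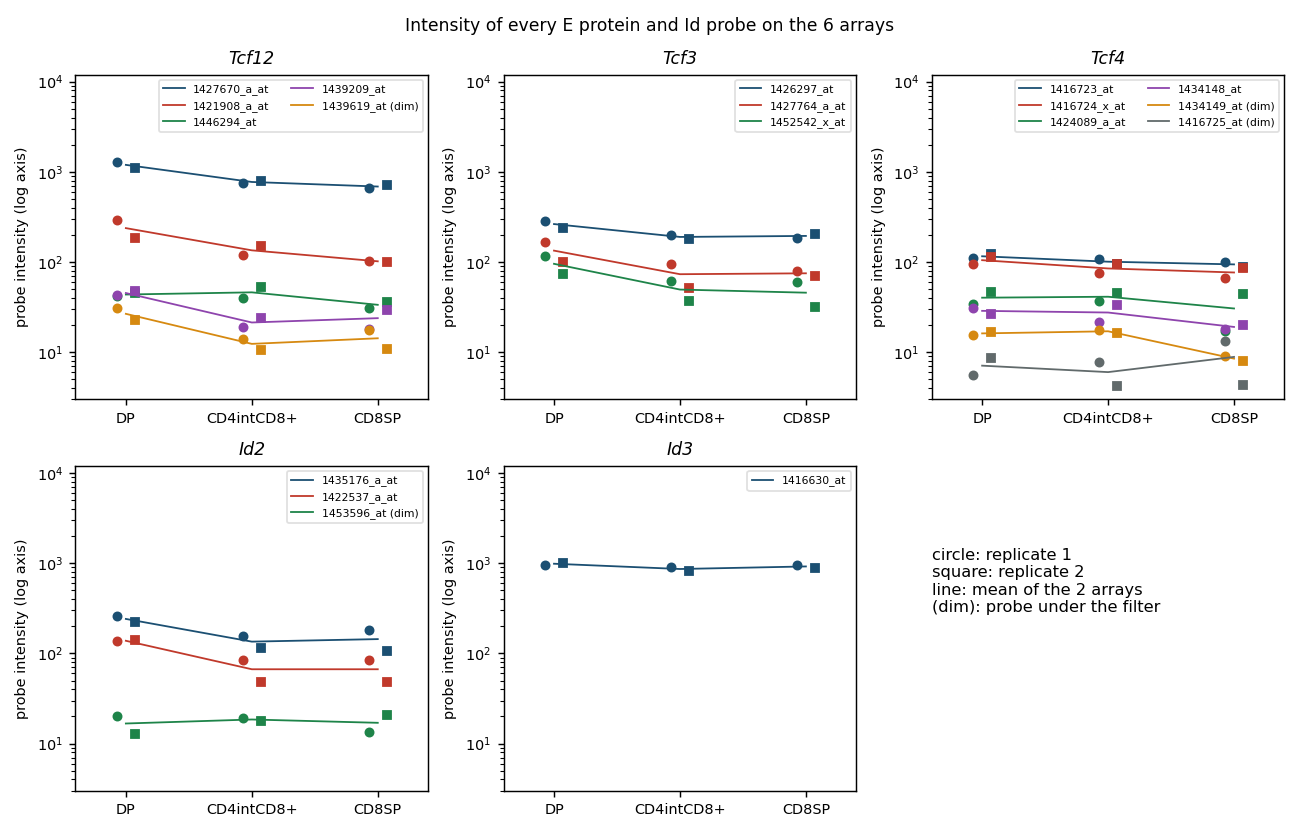
Deposited intensity (log axis) of every probe of the 5 genes on the 6 arrays; circles are replicate 1, squares replicate 2, lines join the stage means, and dim probes are those left out of the tests. The brightest Tcf12 probe drops from 1291 and 1101 in DP to 755 and 790 in CD4intCD8+, while Id3 stays between 827 and 1016 on all 6 arrays.

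Tcf4, the E protein that is known above all as the lineage factor of plasmacytoid dendritic cells, was not called on any of its 4 tested probes. The brightest, 1416723_at, read 110 and 123 in DP arrays, 107 and 94.8 in CD4intCD8+ arrays, and 99.5 and 89.2 in CD8SP arrays. The DP arrays were the highest, by a narrow margin over CD4intCD8+ replicate 1. Its change was -0.19 ± 0.16 from DP to CD4intCD8+ (adjusted p = 0.501) and -0.29 ± 0.16 from DP to CD8SP (0.279), where the 95% interval of -0.65 to 0.07 leaves room for a fall as well as for no change. Probe 1416724_x_at read 94.1 and 115 in DP arrays, 75.6 and 94.5 in CD4intCD8+ arrays, and 66.8 and 86.6 in CD8SP arrays. Its CD8SP arrays were below both DP arrays, and the change of -0.42 ± 0.20 missed the threshold in either fit (adjusted p = 0.191, and 0.0625 with the block). Probes 1424089_a_at and 1434148_at ranged from 17.4 to 46.1 and from 18.1 to 33.4, and were not called.

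Of the dim Tcf4 probes, 1416725_at read 4.19 to 13.4 with no order by stage. The other, 1434149_at, read 15.6 and 16.7 in DP arrays, 17.8 and 16.4 in CD4intCD8+ arrays, and 9.03 and 8 in CD8SP arrays. Its CD8SP arrays were the lowest, a change of -0.68 ± 0.30 from CD4intCD8+ in a fit without the brightness limit (adjusted p = 0.663), at intensities close to the pseudocount. It shares its source record with 1434148_at. Of 8 plasmacytoid dendritic cell markers all were on the array and 3 were dim, among them Siglech at 13.5 to 24.4. Their summed intensity was 563 to 653 in DP arrays, 626 to 653 in CD4intCD8+ arrays and 586 to 743 in CD8SP arrays, and Bst2, which T cells also express, was the 1 member called on stage alone, higher by 1.49 ± 0.32 in CD4intCD8+ (adjusted p = 0.0244) and by 2.22 ± 0.32 in CD8SP (0.00212). The first call was lost without either DP array or CD4intCD8+ replicate 1, and with no intensity trend. With the block Ptprs, a phosphatase gene, was called lower in CD8SP (-0.54, adjusted p = 0.0359, and 0.0766 without it).

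Id2, the inhibitor known for its part in natural killer, dendritic and effector CD8 cells, read lower after DP on both tested probes. Its brightest probe, 1435176_a_at, read 260 and 222 in DP arrays, 154 and 115 in CD4intCD8+ arrays, and 182 and 107 in CD8SP arrays. Both DP arrays were above the other 4, and the later stages overlapped. The change was -0.82 ± 0.24 from DP to CD4intCD8+ (adjusted p = 0.0752) and -0.76 ± 0.24 from DP to CD8SP (0.0705), neither of them called; within replicates 1 and 2 the first was -0.74 and -0.91. With the replicate block both were called (adjusted p = 0.00415 and 0.00428).

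Probe 1422537_a_at read 136 and 140 in DP arrays, 85.1 and 48.3 in CD4intCD8+ arrays, and 84.7 and 48.7 in CD8SP arrays. The later stages were alike within each replicate number, and the replicate 2 arrays were the lowest. Its change of -1.03 ± 0.29 from DP to CD8SP was called (adjusted p = 0.0431), and the change of the same size and error from DP to CD4intCD8+ was not (0.0617). With the block the adjusted p of both fell, to 0.00599 for CD4intCD8+ and 0.004 for CD8SP. The CD8SP call was lost without DP replicate 1 (0.167), DP replicate 2 (0.176) or CD8SP replicate 2 (0.234, change -0.67). The remaining probe, 1453596_at, was dim at 12.9 to 20.5 with no order by stage.

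The Id2 changes were smaller in the fit with the actin ratio as a covariate. That ratio was higher on every later array than in DP, so its part and that of the stage cannot be told apart. With that ratio as a covariate the change from DP to CD4intCD8+ was -0.30 on both probes (adjusted p = 0.732 and 0.736), and that from DP to CD8SP was -0.49 and -0.66 (0.179 and 0.0776). Of 8 natural killer cell markers 7 were on the array and 3 were dim; their sum was 1007 to 1155 in DP arrays, 2587 to 3063 in CD4intCD8+ arrays and 2491 to 2821 in CD8SP arrays. Most of that was Gzma, a granzyme gene, which rose by 1.55 ± 0.12 in CD4intCD8+ (adjusted p = 0.000801). Tyrobp read at most 20.1, and Klra8 and Nfil3 were at or below 0 on at least 1 array. Conventional dendritic cell markers summed to 211 to 217 in DP arrays, 358 to 381 in CD4intCD8+ arrays and 388 to 586 in CD8SP arrays. Of the 6 tested, Cd74 and H2-Ab1 were called higher in both and H2-Aa in CD8SP. That is 2 and 3 of 6, where 4.84% and 8.86% of all genes were called higher. Itgax, Flt3 and Zbtb46 were not called, with changes to CD8SP of -0.04, -0.34 and 0.24, and Xcr1 was dim at 4.79 to 12.6. The H2-Ab1 call in CD4intCD8+ was lost without either DP array or CD4intCD8+ replicate 2, with the actin ratio as a covariate, and with no intensity trend. The H2-Aa call in CD8SP was lost without either DP array or CD8SP replicate 2. The sums of both lists were higher after DP, where Id2 was lower; their part in the Id2 values was not tested.

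Id3, the inhibitor best known as a target of T-cell receptor signals through Egr factors, had 1 probe, 1416630_at. It read 955 and 1016 in DP arrays, 897 and 827 in CD4intCD8+ arrays, and 946 and 894 in CD8SP arrays. The DP arrays were the highest, though CD8SP replicate 1 came close to the lower of them, and the later stages overlapped. The change was -0.19 ± 0.10 from DP to CD4intCD8+ (adjusted p = 0.3, 95% interval -0.43 to 0.04) and -0.10 ± 0.10 from DP to CD8SP (0.591, -0.33 to 0.14). It was called in no comparison under any setting tried. The interval from DP to CD8SP excludes a change as large as that of the brightest Tcf12 probe, whose own interval was -1.05 to -0.52; the difference between these genes was not itself tested.

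From CD4intCD8+ to CD8SP, 0 of the 14 probes were called, and 0 reached an unadjusted p under 0.05. Few probes of any gene were called in this comparison, 0.0858% on stage alone and 1.31% with the block, where the member count was also 0. The median change of the 14 was -0.11. Both CD8SP arrays lay below both CD4intCD8+ arrays for 4 of the 14 probes, against 18.8% of all probes. Of these, 3 were probes of Tcf12. Against the mean of DP and CD8SP, the CD4intCD8+ stage differed for 0 of the 14 probes, as for 0% of all probes, and 1 of the 14 had an unadjusted p under 0.05.

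**Figure D3:**
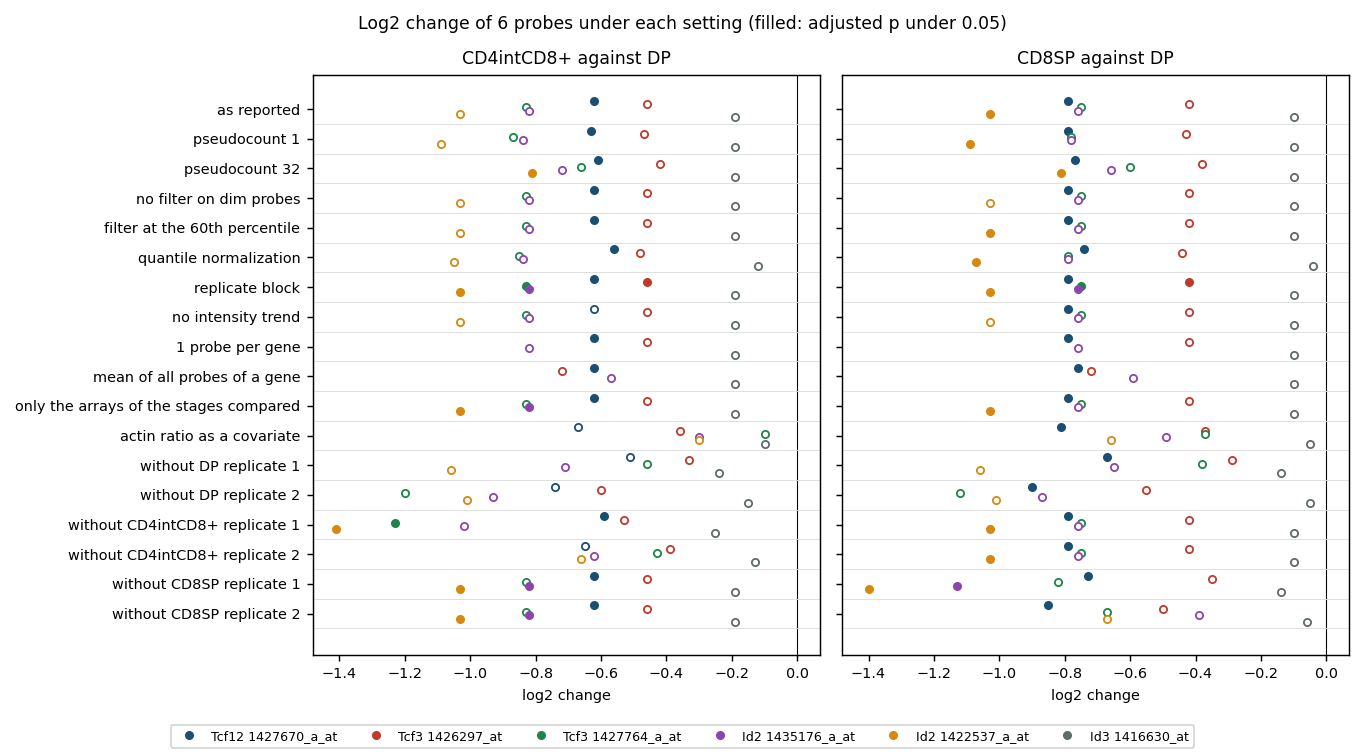
Log2 change against DP of 6 probes (colours) under each setting of the fit (rows); filled points had an adjusted p under 0.05. The points stay at or left of 0 in every row, and the brightest Tcf12 probe is filled in every row of CD8SP against DP. With the actin ratio as a covariate, both Id2 probes lie at -0.30 in CD4intCD8+ against DP. There the Tcf3 probes 1426297_at and 1427764_a_at lie at -0.36 and -0.10.

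Of 14 genes known to need E proteins, 13 were named on the array and all 13 were tested on their brightest probe. From DP to CD4intCD8+ 7 fell and 0 rose, with a median log2 change of -0.82, against 3.42% called lower, 4.84% called higher and a median of 0.01 over 12762 genes. Rag1, a subunit of the receptor recombinase, read 1046 and 1054 in DP arrays, 101 and 134 in CD4intCD8+ arrays, and 57.8 and 97.9 in CD8SP arrays. Its arrays did not overlap between any stages, and the change to CD4intCD8+ was -3.11 ± 0.23 (adjusted p = 0.000719). Gfi1, a repressor that limits lymphoid progenitor growth, fell by 0.91 ± 0.18 (adjusted p = 0.0182). Notch3, a receptor of early thymocytes, fell by 0.82 ± 0.16 (0.02). Socs1, an inhibitor of cytokine signals, fell by 1.34 ± 0.20 (0.0074), and Dntt, which adds bases at receptor junctions, by 0.95 ± 0.20 (0.0231). Rag2 fell by 2.63 ± 0.47 (0.0133); the mice are Rag2-deficient in every group, and whether its probe lies in the deleted stretch is not given. The seventh was Cd4, whose values given above leave no usable fold.

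The uncalled genes of that list included Cxcr4, a chemokine receptor of cortical thymocytes, at -0.76 ± 0.23 (adjusted p = 0.0788), and Ptcra, the pre-T-cell receptor chain gene, at 0.61 ± 0.49 (0.493). Cxcr4 was called with the block in both stages (0.0283 and 0.0401), where 7.96% of all genes were called lower in CD4intCD8+ and 10.8% in CD8SP. The count of 7 became 2 when DP replicate 1 was left out, 3 when DP replicate 2 was, and 4 when CD4intCD8+ replicate 1 was. Rag1 and Cd4 were among those left in each case. Rag1, Rag2, Cd4, Ptcra and Dntt are also DP markers, so the list is not separate from the stage itself. From DP to CD8SP the same 7 genes fell, against 6.25% of all genes called lower. Notch1, the receptor that commits progenitors to the T lineage, rose by 0.55 ± 0.11 (adjusted p = 0.0124), and so did Socs3, an inhibitor of cytokine signals, by 1.24 ± 0.24 (0.00915). Both calls were lost when either DP array or CD8SP replicate 2 was left out. The Notch1 call was also lost without CD8SP replicate 1 and with no intensity trend.

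Of 9 genes known to be held down by E proteins, 8 were named and tested. S1pr1, the receptor that lets thymocytes leave, read 42.8 and 18.6 in DP arrays, 99.1 and 71.5 in CD4intCD8+ arrays, and 209 and 148 in CD8SP arrays. The 3 stages did not overlap, and it was the 1 gene of the list that rose by CD4intCD8+, by 1.38 ± 0.32 (adjusted p = 0.032). That call was lost without DP replicate 2 or either CD4intCD8+ array, and with no intensity trend. By CD8SP 6 of the 8 had risen and 0 had fallen, with a median of 1.37, against 8.86% of all genes called higher. The list was chosen with earlier results of these data known, so its share beside that of all genes is only a description. Il7r, a receptor for a survival cytokine, rose by 2.81 ± 0.30 (adjusted p = 0.000498), from 28.8 and 24.2 in DP to 152 and 318. Klf2, a regulator of egress, rose by 1.82 ± 0.32 (0.00568), and Ccr7, a chemokine receptor of medullary cells, by 1.97 ± 0.33 (0.00502). Foxo1, which acts upstream of these, rose by 0.93 ± 0.12 (0.00151), and the cell cycle kinase gene Cdk6 by 0.73 ± 0.19 (0.03). The Cdk6 call was lost without either DP array or CD8SP replicate 2, with the actin ratio as a covariate, and with no intensity trend. With the block Il7r, Klf2, Ccr7 and Foxo1 joined S1pr1 as called by CD4intCD8+, where 10.6% of all genes were called higher, and 7 genes were called by CD8SP, where 14.2% were. Runx3, the CD8 lineage factor, was the seventh (adjusted p = 0.0194, and 0.0987 without the block).

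**Figure D4:**
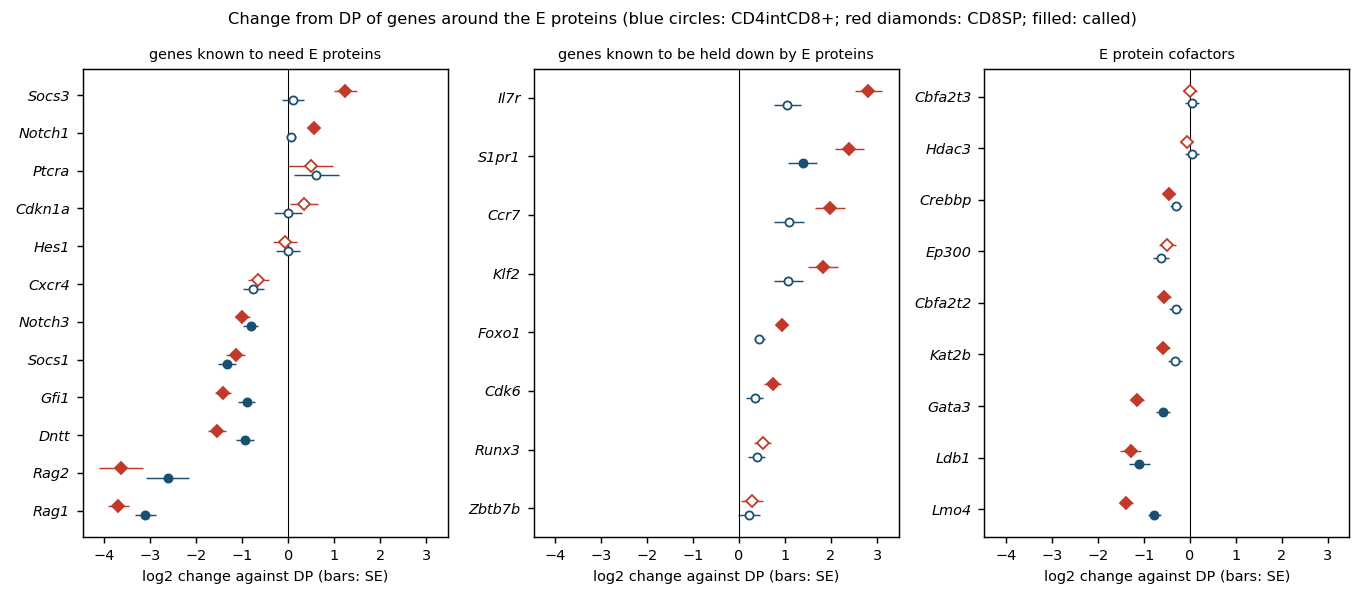
Log2 change against DP (bars: SE) of the genes of 3 lists, with CD4intCD8+ as blue circles and CD8SP as red diamonds, filled where called. Cd4 is left out because its later values leave no usable fold. Rag1 and Rag2 lie farthest to the left, at -3.11 and -2.63 in CD4intCD8+, and Il7r farthest to the right, at 2.81 in CD8SP.

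Of 12 cofactors that E proteins are known to bind or share complexes with, 9 were tested. Lmo4, a LIM-only adaptor, read 833 and 704 in DP arrays, 466 and 426 in CD4intCD8+ arrays, and 310 and 273 in CD8SP arrays. Its stages did not overlap, and it changed by -0.77 ± 0.14 from DP to CD4intCD8+ (adjusted p = 0.0132) and by -1.38 ± 0.14 from DP to CD8SP (0.00037). Ldb1, which bridges LIM-domain complexes, changed by -1.10 ± 0.23 (0.0238) to CD4intCD8+ and by -1.28 ± 0.23 (0.00682) to CD8SP. Gata3, a T-cell factor found in such complexes, changed by -0.58 ± 0.15 (0.0483) and -1.14 ± 0.15 (0.00139). These were the 3 of 9 called lower in CD4intCD8+, where 3.42% of all genes were. All 3 calls were lost without CD4intCD8+ replicate 2, without either DP array, with the actin ratio as a covariate, or with no intensity trend. In CD8SP 6 of the 9 were lower, where 6.25% of all genes were, and those not named so far were the acetyltransferase genes Crebbp (-0.45 ± 0.13) and Kat2b (-0.59 ± 0.15) and the corepressor gene Cbfa2t2 (-0.55 ± 0.15). That count became 2 without DP replicate 1 and 3 without DP replicate 2 or CD8SP replicate 2. The acetyltransferase gene Ep300 changed by -0.63 ± 0.18 in CD4intCD8+ and by -0.49 ± 0.18 in CD8SP, called with the block (adjusted p = 0.00701 and 0.0178) and not on stage alone (0.0626 and 0.0976).

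Of 8 genes that act on the stability of E or Id proteins, 6 were tested and 0 were called in any comparison on stage alone by limma; 2 had an unadjusted p under 0.05 from DP to CD4intCD8+, 3 from DP to CD8SP and 1 from CD4intCD8+ to CD8SP. Skp2, a subunit of a ubiquitin ligase that targets E proteins, read 63.8 and 73.6 in DP arrays, 110 and 203 in CD4intCD8+ arrays, and 103 and 181 in CD8SP arrays. All later arrays were above DP and the replicate 2 arrays were the higher ones; the changes of 1.06 ± 0.31 in CD4intCD8+ and 0.94 ± 0.31 in CD8SP were called with the block (adjusted p = 0.0025 and 0.00325) and not on stage alone (0.0709 and 0.0752). Once the actin ratio was added as a covariate, the first was 0.20. Usp1, which removes ubiquitin from Id proteins, read 719 and 683, then 848 and 1031, then 882 and 916. Its changes of 0.41 ± 0.12 and 0.36 ± 0.12 were likewise called with the block (0.0192 and 0.029) and not on stage alone (0.072 and 0.0821).

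Among 17 genes of signals known to induce Id genes, 14 were tested. Egr3, a zinc-finger factor induced by receptor signals, read 71 and 73.3 in DP arrays, 196 and 144 in CD4intCD8+ arrays, and 289 and 212 in CD8SP arrays. It rose at CD4intCD8+ by 1.16 ± 0.20 (adjusted p = 0.0125) and was the 1 gene of 14 called there, where 4.84% of all genes were called higher; the call was lost without either DP array (0.0861 and 0.082). In CD8SP, Egr3 was higher by 1.70 ± 0.20 (0.000815) while Egr1 and Egr2, its relatives, were lower by -0.50 ± 0.11 (0.0158) and -0.53 ± 0.15 (0.0444). Smad5, which carries bone morphogenetic signals, was also lower there, at -0.73 ± 0.18 (0.0266), so that 3 of 14 were called lower and 1 higher, where 6.25% and 8.86% of all genes were. The Egr1 and Egr2 calls were lost without either DP array or CD8SP replicate 2, and that of Smad5 without DP replicate 2 or CD8SP replicate 1. Adding the actin ratio to the fit, or leaving out either CD4intCD8+ array, also removed the Egr2 call. Egr1, Egr2 and Smad5 were all uncalled when the fit had no intensity trend. The other 10 tested genes were not called on stage alone. With the block 3 of them were: Ets1, a transcription factor gene, lower in CD4intCD8+ and CD8SP (-0.43 in both, adjusted p = 0.0052 and 0.00303, against 0.153 and 0.118 without it), Smad3, which carries TGF-beta signals, lower in CD8SP (-0.47, 0.0185 against 0.0523), and the TGF-beta receptor gene Tgfbr2 higher there (0.47, 0.00368 against 0.05).

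Of 6 genes known to be held down by Id proteins in T cells, 4 were tested. Bcl6, the follicular T-cell repressor, read 606 and 601 in DP arrays, 190 and 216 in CD4intCD8+ arrays, and 110 and 101 in CD8SP arrays. Its stages did not overlap, and it changed by -1.55 ± 0.14 from DP to CD4intCD8+ (adjusted p = 0.00112) and by -2.46 ± 0.14 from DP to CD8SP (3.07e-05). Sh2d1a, an adaptor of innate-like T cells, changed by -0.49 ± 0.11 (0.0265) and -1.10 ± 0.11 (0.000322). Its first call was lost without either DP array or either CD4intCD8+ array, with the actin ratio as a covariate, and with no intensity trend. Bcl6 and Sh2d1a were the 2 of 4 lower in each stage, where 3.42% and 6.25% of all genes were. Zbtb16, the innate-like T-cell factor, was not called at 32.1 to 50.5, nor was Eomes at 13.7 to 53.7.

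Of 20 other helix-loop-helix genes 9 were bright enough to test. Hes6, a Hes family member, read 701 and 633 in DP arrays, 499 and 435 in CD4intCD8+ arrays, and 452 and 436 in CD8SP arrays. Both later stages lay below DP, by -0.51 ± 0.13 (adjusted p = 0.0405) and -0.58 ± 0.13 (0.0154). Hes6 was the 1 gene of 9 called, where 3.42% and 6.25% of all genes were lower. Both calls were lost with no intensity trend and without either DP array. The call in CD4intCD8+ was also lost with the actin ratio as a covariate, without CD4intCD8+ replicate 2 and without either CD8SP array. The call in CD8SP was also lost without CD8SP replicate 2. Id1, a relative of Id2 and Id3, read 27.8 to 42.4 and was not called. Of the others the largest changes to CD8SP were those of Hey1 (0.75 ± 0.60), Bhlhe41 (-0.48 ± 0.25) and Tal1 (-0.39 ± 0.23), none of them called in either fit. In the comparison of CD8SP with CD4intCD8+, 0 of the 62 genes tested from all 7 lists were called by limma on stage alone, where 0.094% of all genes were, and 21 had an unadjusted p under 0.05. With the block 6 were called higher there (Foxo1, Ccr7, S1pr1, Il7r, Notch1 and Socs3) and 5 lower (Dntt, Lmo4, Gata3, Bcl6 and Sh2d1a), where 1.54% of all genes were called.

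Among the marker lists not described so far, the T-cell markers Thy1, Cd8a and Cd8b1 were called lower than DP in both later stages. Cd3d and Cd2 were called lower in CD8SP. That is 3 and 5 of 7, where 3.42% and 6.25% of all genes were called lower. With the actin ratio as a covariate these counts were 1 and 4, and with no intensity trend 0 and 2. With the block Cd3d and Cd3e were called lower in CD4intCD8+ too. Of 7 DP markers 6 were called lower in both stages, against the same shares of all genes, Ets2 and Ccr9 beside those named above. In CD4intCD8+ the count was 5 with the actin ratio as a covariate and 3 with no intensity trend. With the block Ets2, Ccr9 and Dntt were also lower in CD8SP than in CD4intCD8+. Of 4 tested B-cell markers 1 was called on stage alone, the receptor chain gene Cd79b, higher in CD8SP (0.90 ± 0.19, adjusted p = 0.0143). That call was lost without either DP array or either CD8SP array. Ms4a1, Pax5 and Cd22 were not called, and Cd79a, Ebf1 and Blnk were dim. Of 5 tested double-negative thymocyte markers 1 was called, Igll1, a surrogate light chain gene of early progenitors. It was higher in both stages (0.69 ± 0.16 and 0.77 ± 0.16, adjusted p = 0.0368 and 0.015). Of all genes, 4.84% were called higher in CD4intCD8+ and 8.86% in CD8SP. By limma on stage alone 0 myeloid, stromal or erythroid markers were called against DP; 1 of them had an unadjusted p under 0.05 in CD4intCD8+ and 1 in CD8SP, and with the block Pdgfrb and Alas2 were called lower in CD8SP.

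The genes with the most similar profile to each member were found as those with the smallest root mean square difference of log2 values over the 6 arrays, each centred on its own mean, among 12761 other genes. For Tcf12 these were AI504432 (0.036), Arid2 (0.049), a chromatin remodelling subunit gene, and Setd7 (0.054), a methyltransferase gene, whose changes from DP to CD8SP were -0.73, -0.87 and -0.84. For Tcf3 they were Strn4 (0.034), Rreb1 (0.037) and Btbd9 (0.037). For Id2 the nearest were 9530047P18Rik (0.058), E230025N22Rik (0.085) and Spsb2 (0.087). Id3 had the closest neighbours in value, Ptch1 (0.019), Ppp5c (0.023) and Plekhb2 (0.023), none of which changed by more than 0.21 against DP. For Tcf4 they were Rab6a (0.037), Ldhd (0.037) and Tmem234 (0.038). With 6 arrays in 3 groups a profile of this kind is shared by many genes, and the neighbours are given as a description.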

How the data were processed

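Gene expression was measured on 6 mouse arrays, 2 each of DP, CD4intCD8+ and CD8SP thymocytes, grouped and numbered by the sample titles. The authors deposited 1 linear intensity per probe and array, 45101 rows with 64 controls; for software and scaling nothing is given in the sources used. The values show a subtracted background (9720 below 0, 3.6%) and a common scale, so a change in total RNA per cell cannot be seen. With 2 arrays a stage, their number limits precision.

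Of 45037 probes, 34945 had a single symbol, 932 several and 9160 none; the last 2 kinds were left out. Values below 0 were set to 0, log2(intensity + 5.84) was taken (the 10th percentile of positive values), and probes under the 40th percentile (intensity 20.3) were left out, keeping 20967. The 6 arrays entered 1 limma fit (version 3.58.1, R 4.3.3, lmFit and eBayes with an intensity trend, stage as the term); p-values were adjusted by Benjamini-Hochberg per contrast and called under 0.05. The script was tested on simulated data. Values after ± are standard errors. A list gene stands for its probe of highest mean, and dim members come from a fit without the limit.

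The labels name 2 independent experiments without saying which array belongs to which; arrays of the same number deviated together (correlations over probes of 0.24, 0.17 and 0.21 between stages), so the number was treated as a pairing, which is an assumption drawn from the data. The fit with them as a block is given where it changes a call. Named are all member probes, every called list gene, up to 4 uncalled ones per list with the largest changes against DP, dim defining markers of other cell types, and the 3 nearest profiles. The members and lists were chosen with earlier results of these data known. Alternatives were the pseudocount, the filter, quantile normalization, the block, no trend, 1 probe or the mean per gene, fewer arrays, and the actin ratio. Those of the gene lists were chosen after seeing the data. Promoters are from RefSeq (GRCm38.p6); 3 of the genes had 1 promoter, Tcf12 had 3, of which the first is shown, and Tcf4 is named only.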

Additional observations from a re-analysis of the deposited data

How the results depend on the processing

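Of 850 comparisons of a single member probe between the fit as reported and an alternative, 809 stayed on the same side of the threshold, 29 became called and 12 lost the call; none changed sign while called. The count of member probes lower from DP to CD4intCD8+, 1 of 14, was 2 with a pseudocount of 32, 8 with the replicate block, 4 with only the arrays of the stages compared, and 0 with no intensity trend or with the actin ratio as a covariate. It ranged from 0 to 4 when each array was left out in turn. From DP to CD8SP the count of 3 was 8 with the replicate block, 1 of 5 genes with 1 probe per gene or with probes averaged per gene, and 1 to 5 when each array was left out. The counts of 0 for CD8SP against CD4intCD8+ and for CD4intCD8+ against the mean of the others stayed 0 throughout. Fewer arrays leave fewer degrees of freedom, and where 1 array of a stage was left it is assumed to vary like the other stages. Over all probes, the 1563 called from DP to CD4intCD8+ were 3647 with the block, 494 with no trend, 380 with the actin ratio and 157 to 1745 with an array left out; the 18 called from CD4intCD8+ to CD8SP were 275 with the block. The cause of each shift was not tested. Probes near 20 lie close to background, and there a change is understated.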
